A study of Mus musculus with 3 samples.

Results

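The TAK1, IKK and TBK1 kinase complexes carry the signal of receptors such as TLR4 from ubiquitin chains to the transcription factors NF-kB, AP-1 and IRF3. A set of 10 genes was taken by name from the 55536 genes of the deposited tables. It holds the TAK1 kinase gene Map3k7 with Tab1, Tab2 and Tab3, the IKK genes Chuk, Ikbkb and Ikbkg, the related kinase genes Tbk1 and Ikbke, and Ripk1. Values came from polyadenylated RNA of macrophages grown from C57BL/6J bone marrow, in 1 group of 3 libraries, biological replicates 1, 2 and 3. Their labels give lipid A, the part of bacterial lipopolysaccharide that TLR4 binds, at 100 ng/ml for 0 minutes, which makes them the start of a stimulation. Sex and age were not collected, no genetic change is named, and all 3 libraries cite the same donor record. Separate animals are not stated, so part of the spread between libraries may be technical. With no second group, the values are levels before stimulation and their spread, and no response to lipid A was measured.

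As background, TAK1 is a kinase that works with the activator subunit TAB1 and with TAB2 or TAB3, which bind ubiquitin chains. It activates the IKK complex, in which IKK alpha (Chuk) and IKK beta (Ikbkb) are the kinases and NEMO (Ikbkg) is the regulatory subunit that binds linear ubiquitin chains. IKK beta marks the NF-kB inhibitor IkB alpha for destruction. TBK1 and IKK epsilon (Ikbke) are relatives of the IKK kinases that activate IRF3 and so the interferon genes. In macrophages Ikbke is known as the inducible member of that pair. RIPK1 is a scaffold and kinase that joins receptors to TAK1 and IKK and also starts cell death.

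The libraries held 27946070, 29779410 and 53447437 expected counts in replicates 1, 2 and 3, so that a count of 0 allows 0.107, 0.101 and 0.0561 CPM, which are counts scaled to equal library totals. Replicate 3 stood apart by its depth and by a mitochondrial share of 6.98%, against 1.84% and 2.24% in replicates 1 and 2. Replicate 1 had 9.75% of its counts on 1 ribosomal RNA gene, against 1.88% and 2.50% in replicates 2 and 3. All 7 macrophage markers reached 1 TPM in each library. TPM are a transcript's share of the library after division by its length, scaled to the same sum in each library. Markers of B, T, mast and stromal cells summed to at most 1.87 TPM a list. The 7 neutrophil markers summed to 168, 34.9 and 326 TPM in replicates 1, 2 and 3, while their defining gene Ly6g was at 0 in all 3. A list of 12 interferon-stimulated genes was highest in replicate 2 for all 12, with medians of 49.9, 282 and 40.1 TPM.

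All 10 kinase complex genes were present at 1 TPM or more in every library, where 44.8% of the 22028 protein-coding genes were. A level of 10 TPM in each library was reached by 8 of 10, against 26.6% of protein-coding genes. Their expected counts lay between 361 and 15064 a library. The median over the 10 genes of the mean level was 36.1 TPM, against 19.6 TPM over the 9875 protein-coding genes that passed the same limit of 1 TPM. In bulk RNA, fewer cells that express a gene and less RNA per cell cannot be told apart. The order of mean levels ran from Ikbke through Tab2, Tbk1, Ripk1, Ikbkb, Chuk, Map3k7, Ikbkg and Tab1 down to Tab3.

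**Figure D1:**
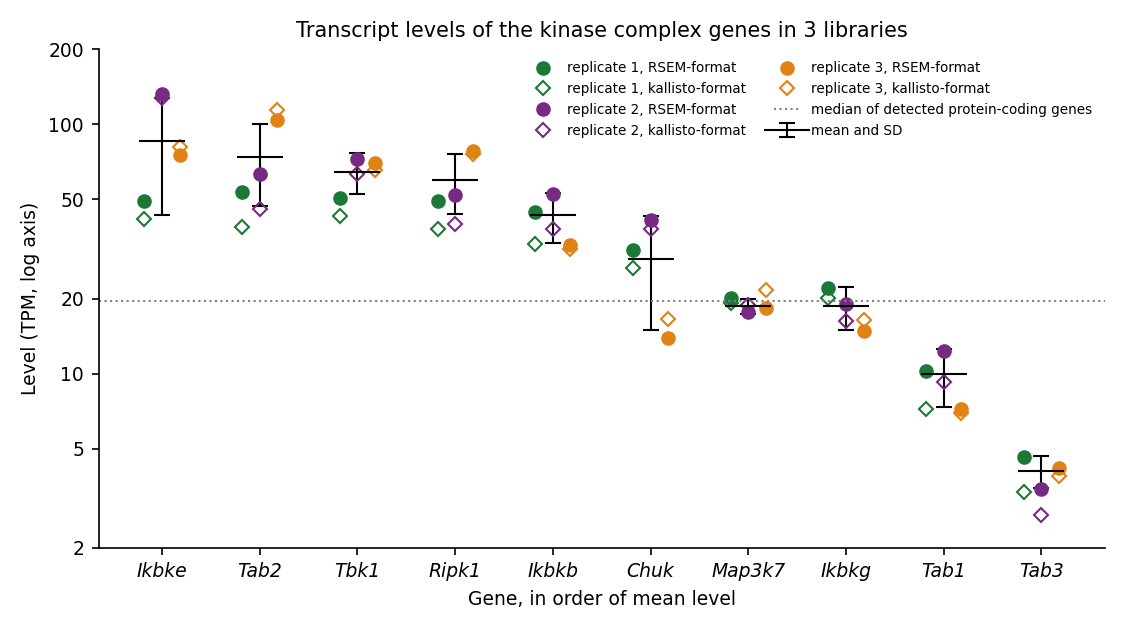
Each gene's level in TPM on a log axis, in the order of the mean over 3 libraries; filled circles are the RSEM-format gene table, open diamonds the kallisto-format table summed by gene, bars the mean and SD of the circles, and the dotted line the median of 19.6 TPM of detected protein-coding genes. Ikbke spans 49.4 to 132 TPM, while Map3k7 stays between 17.6 and 20.1 TPM.

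Of the 9 steps between neighbours in that order, 3 held in all 3 libraries and were larger than their SD. These were Ikbkb over Chuk, Ikbkg over Tab1 and Tab1 over Tab3. The other 6 steps, which are the 4 from Ikbke down to Ikbkb, the one from Chuk to Map3k7 and the one from Map3k7 to Ikbkg, did not meet both conditions. With 3 libraries the exact two-sided sign-flip permutation test cannot go below p = 0.25, so no step could pass 0.05. Without replicate 1 the number of such steps was 3, without replicate 2 it was 5 and without replicate 3 it was 6. A step then has fewer libraries to hold in, and the order was taken anew. These counts therefore do not show which library decided a step.

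Among the TAK1 genes, the kinase gene Map3k7 (ENSMUSG00000028284.13, mm10 chr4:31964097-32023467, plus strand) was the most even in TPM. It had 20.1, 17.6 and 18.4 TPM in replicates 1, 2 and 3, or 18.7 ± 1.28 TPM (SD, n = 3). Its mean lay at percentile 48.4 of the detected protein-coding genes. On counts scaled by TMM, Map3k7 had 63.7, 53.1 and 72.8 CPM. That is a ratio of 1.37 between highest and lowest library, close to the 1.39 of Tab1. Tab2 (ENSMUSG00000015755.16, chr10:7905653-7956230, minus strand), whose product binds ubiquitin chains, was the most abundant TAK1 partner, at 53.6, 63.3 and 104 TPM, or 73.7 ± 26.8 TPM (SD, n = 3). Replicate 3 was the high library for Tab2, and the other 2 lay close together. Tab3 (ENSMUSG00000035476.9, chrX:85574022-85634469, plus strand), which encodes the related ubiquitin-binding subunit, was the lowest of the 10 genes at 4.64, 3.43 and 4.17 TPM, or 4.08 ± 0.61 TPM (SD, n = 3). Tab2 exceeded Tab3 in all 3 libraries, by 11.3-fold, 17.96-fold and 24.4-fold, and the mean log2 ratio was 4.09 ± 0.56 (SD, n = 3; exact sign-flip permutation p = 0.25, the smallest possible). Tab1 (ENSMUSG00000022414.8, chr15:80133127-80161707, plus strand), the activator subunit, had 10.2, 12.3 and 7.19 TPM, or 9.92 ± 2.58 TPM (SD, n = 3). The kinase gene stood above it in every library, with a mean log2 ratio of Map3k7 over Tab1 of 0.94 ± 0.42. Tab1 over Tab2 gave -2.86 ± 0.85 on the same scale, so the TAB2 transcript was the more abundant partner by 7.24-fold on average.

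Map3k7 transcripts differed by 1 exon inside the coding region. Its 2 main coding transcripts, Map3k7-201 and Map3k7-202, have 1818 and 1737 coding bases, and the difference is exon 12 of 17, of 81 bases, at chr4:31994874-31994954. Because 81 bases keep the reading frame, both forms are annotated as complete proteins. The exon is shown in capitals between 15 bases of each neighbouring exon, and then the junction that skips it.
Map3k7 with the exon: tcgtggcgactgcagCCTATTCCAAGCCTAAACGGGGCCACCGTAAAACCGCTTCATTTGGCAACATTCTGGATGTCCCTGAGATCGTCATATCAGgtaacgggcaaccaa
Map3k7 without the exon: tcgtggcgactgcaggtaacgggcaaccaa
By the RSEM-format values, 34.5%, 34.4% and 30.4% of coding Map3k7 TPM were on transcripts that hold the exon, or 33.1 ± 2.34% (SD, n = 3). In the kallisto-format table the same shares were 43.5%, 44.1% and 38.0%, or 41.9 ± 3.41%. The form that skips the exon was therefore the larger one in every library and in both tables, and the tables differed by more than the libraries did. Map3k7-202 alone took 59.7 ± 3.17% of the gene's TPM in the RSEM-format table and 37.0 ± 6.84% in the kallisto-format table. Most of that gap lay in the non-coding transcript Map3k7-207 of 590 bases, at 6.04 ± 5.24% and 21.2 ± 4.30% of the gene in the 2 tables. Map3k7-209, also non-coding, reached at most 4.48% in the RSEM-format and 10.9% in the kallisto-format table.

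**Figure D2:**
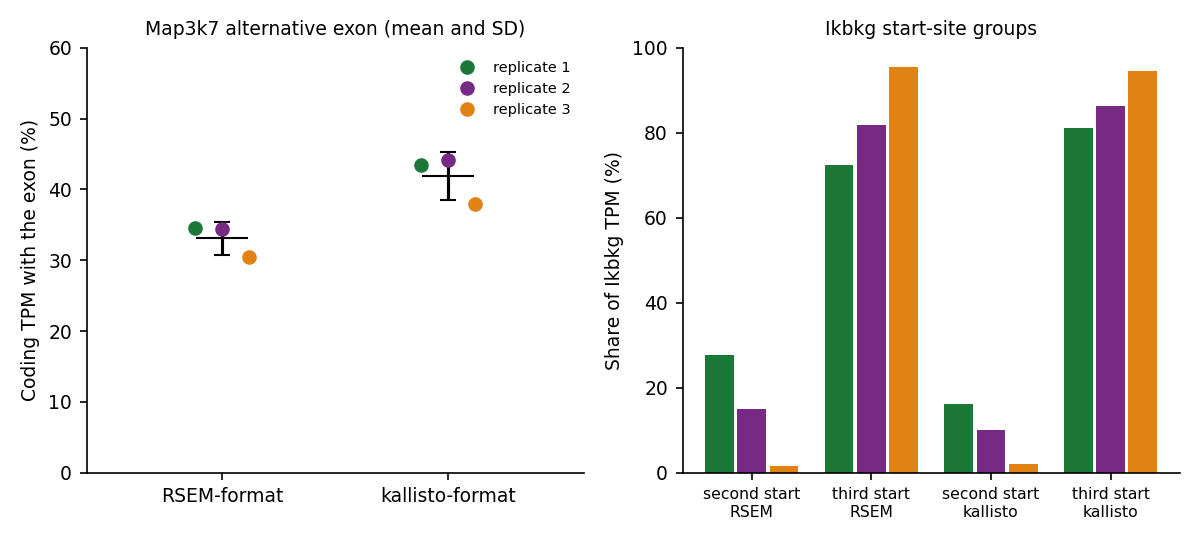
Left, the share of coding Map3k7 TPM (%) on transcripts with the alternative exon in each library, for the 2 transcript tables, with mean and SD; right, the share of Ikbkg TPM (%) on transcripts from the second and the third start-site group, as bars coloured by replicate. The exon share stays between 30.4% and 44.1%, and the second Ikbkg start is highest in replicate 1 and lowest in replicate 3 in both tables.

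For Tab2, the leading transcript Tab2-204 took 94.6%, 94.1% and 82.9% of the gene in the RSEM-format table. The rest of replicate 3 was mostly Tab2-205, a coding transcript annotated as incomplete at its end. Tab2-205 has 1660 coding bases, lacks the last 3 exons and has an exon of its own of 141 bases at chr10:7933068-7933208, on the minus strand. Its share was 3.34%, 2.43% and 14.96% in replicates 1, 2 and 3, and 8.42%, 4.66% and 39.4% in the kallisto-format table. Both tables thus put it highest in replicate 3, the library in which Tab2 was also highest. The leading transcript itself still had 50.7, 59.6 and 86.4 TPM. Tab1-201 led Tab1 with 85.9 ± 6.77% and Tab3-201 led Tab3 with 90.3 ± 8.62% (SD, n = 3 each). The non-coding Tab3-204 took 9.91%, 12.8% and 0% of Tab3, on at most 1 expected count.

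In the IKK complex, Ikbkb (ENSMUSG00000031537.15, chr8:22659212-22706589, minus strand) had 44.3, 52.4 and 32.9 TPM, or 43.2 ± 9.79 TPM (SD, n = 3). Chuk (ENSMUSG00000025199.16, chr19:44073335-44107480, minus strand) had 31.5, 41.3 and 13.9 TPM, or 28.9 ± 13.9 TPM. In TPM, replicate 3 was the low library for both kinase genes. On counts scaled by TMM it stayed the low one for Chuk, while Ikbkb was lowest in replicate 1. Chuk over Ikbkb had a mean log2 ratio of -0.69 ± 0.48 (SD, n = 3; exact sign-flip permutation p = 0.25), so that IKK beta transcripts were 1.41-fold, 1.27-fold and 2.36-fold above IKK alpha transcripts in replicates 1, 2 and 3. The regulatory subunit gene Ikbkg (ENSMUSG00000004221.16, chrX:74393290-74453854, plus strand) had 22.1, 18.9 and 14.8 TPM, or 18.6 ± 3.65 TPM. Ikbkg lay below Ikbkb in every library, with a mean log2 ratio of -1.20 ± 0.24 and of -0.96 ± 0.26 in the kallisto-format table. Against Chuk it was lower in 2 of 3 libraries, with a mean log2 ratio of -0.51 ± 0.61, which is within the spread.

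By the mean share of the leading transcript, Ikbkg was the most divided gene of the set, at 34.0% in the RSEM-format table. In the kallisto-format table its mean lay close to that of Map3k7. In replicate 2 Chuk had a lower leading share than Ikbkg in both tables. Of the 18 annotated transcripts of Ikbkg the leading one, Ikbkg-202, took 40.3%, 46.4% and 15.3% of the gene in the RSEM-format table. In replicate 3 the incomplete transcript Ikbkg-216 led instead with 41.4%, against 10.2% and 0% in replicates 1 and 2. Ikbkg-216 has 718 bases and had 113 expected counts in replicate 3, so that share rests on few reads of a short transcript. The kallisto-format table kept Ikbkg-202 first in all 3 libraries, at 35.7 ± 1.84% (SD, n = 3). For the other 9 genes 1 transcript led in both tables and every library, as for 67.8% of the 9065 coding genes with 2 or more transcripts. Ikbkg-203 and Ikbkg-202 differ in the coding region by 3 bases at the start of exon 4, whose first base is chrX:74437164 in Ikbkg-203. The junction of exons 3 and 4 is shown with those bases in capitals.
Ikbkg-203: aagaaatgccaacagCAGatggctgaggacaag
Ikbkg-202: aagaaatgccaacagatggctgaggacaag
Ikbkg-203 took 16.0%, 14.4% and 0.541% of the gene in the RSEM-format table and 23.2%, 27.1% and 5.06% in the kallisto-format table. Ikbkg-203 was thus below Ikbkg-202 in each library and in both tables. Which other Ikbkg transcripts hold the 3 bases was not examined, so the shares of the 2 junction forms are not known. Ikbkg-206 took 0.679%, 13.0% and 31.0% in the RSEM-format table, Ikbkg-207 took 19.9%, 10.7% and 0%, and the incomplete Ikbkg-215 took 4.26%, 8.08% and 6.76%. In the kallisto-format table Ikbkg-206 and Ikbkg-207 took at most 7.98% and 8.03%, and Ikbkg-215 at most 13.4%.

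The start of Ikbkg transcripts varied too. They fall into 4 groups of start sites by annotation, of which the second, chrX:74424534-74424638, and the third, chrX:74427902-74429763, held nearly all TPM. The second group had 27.7%, 14.9% and 1.62% of the gene's TPM in replicates 1, 2 and 3 by the RSEM-format table, and 16.2%, 10.1% and 2.00% by the kallisto-format table. The third had 72.3%, 81.9% and 95.5%, and 81.04%, 86.2% and 94.6%. Replicate 1 was thus highest and replicate 3 lowest for the second group in both tables, and the third group led in every library. The bases from 250 to 51 before the RefSeq start of the second group (GRCm38.p6, chrX:74424362-74424561, plus strand) are shown because they hold no CpG.
Ikbkg second start: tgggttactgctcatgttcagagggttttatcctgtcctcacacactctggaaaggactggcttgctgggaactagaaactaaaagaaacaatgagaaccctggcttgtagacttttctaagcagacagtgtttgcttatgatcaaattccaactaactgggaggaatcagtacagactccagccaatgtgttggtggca
They have 44.5% GC. The same windows before the 2 RefSeq starts of the third group have 9 and 4 CpG, with 56.5% and 45.5% GC. The median over all promoters is 4 CpG and 51.5% GC, and 10.9% of promoters hold no CpG. The gene G6pdx, at chrX:74409483-74429194 on the opposite strand with 110, 145 and 161 TPM, spans the second group of starts. Ikbkg-202, Ikbkg-203, Ikbkg-206, Ikbkg-215 and Ikbkg-216, of the third group, start beyond its end. Whether counting used strand is not given in the sources used here, so reads from the overlap cannot be told apart.

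Other transcripts of the IKK kinase genes were also frequent. Ikbkb-201 led Ikbkb with 57.8%, 59.5% and 81.7% of its TPM. The non-coding Ikbkb-213, of 601 bases, took 32.2%, 17.7% and 8.60%, and 35.3%, 17.2% and 7.88% in the kallisto-format table. Because its counts were 90.4, 62.7 and 39.5 expected counts, this share rests on few reads of a short transcript. Ikbkb-201 alone had 25.6, 31.1 and 26.9 TPM, a narrower range than the gene. For Chuk, the leading Chuk-201 has 2235 coding bases and took 54.9 ± 9.65% of the gene. Chuk-202 has 2157 coding bases. Its exon 19 is 117 and not 134 bases long, and its coding part ends before the last exon. It took 17.2 ± 2.84% (SD, n = 3). The low library of Chuk was also low for its coding transcripts, with Chuk-201 at 18.7, 18.1 and 8.56 TPM.

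The IRF3 kinase genes were among the most abundant. Tbk1 (ENSMUSG00000020115.3, chr10:121546455-121586787, minus strand) had 50.8, 72.9 and 69.9 TPM, or 64.5 ± 11.98 TPM (SD, n = 3). Ikbke (ENSMUSG00000042349.13, chr1:131254343-131279606, minus strand) had 49.4, 132 and 75.1 TPM, or 85.4 ± 42.2 TPM. Replicate 2 was the high library for Ikbke, while the Tbk1 gene total was low in replicate 1 and similar in the other 2. Tbk1 over Ikbke had a mean log2 ratio of -0.30 ± 0.48 (SD, n = 3; exact sign-flip permutation p = 0.5), with values of 0.04, -0.85 and -0.10 in replicates 1, 2 and 3. The pair therefore did not differ beyond the spread, and the ratio was far from 0 in replicate 2 only. The leading coding transcript Tbk1-201 had 44.7, 58 and 43.6 TPM, and Ikbke-201 had 38.1, 79.7 and 54.6 TPM. On these transcripts Ikbke was above Tbk1 in replicates 2 and 3 and below it in replicate 1. The rest of Tbk1 in replicate 3 included 12.9 TPM, or 18.4% of the gene, of the incomplete Tbk1-206, which was at 0 in replicates 1 and 2. Tbk1-206 has 442 bases and had 101 expected counts in replicate 3, so it also rests on few reads of a short transcript. Its share in replicate 3 was 11.4% in the kallisto-format table. The 12 interferon-stimulated genes were, like Ikbke, highest in replicate 2, but their median was lowest in replicate 3, where Ikbke stood above its value in replicate 1. Their part in the Ikbke value was not tested.

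Tbk1 and Ikbke start in regions of different composition. The bases from 250 to 51 before their RefSeq starts (GRCm38.p6, minus strand) are at chr10:121586845-121587044 and chr1:131279614-131279813.
Tbk1: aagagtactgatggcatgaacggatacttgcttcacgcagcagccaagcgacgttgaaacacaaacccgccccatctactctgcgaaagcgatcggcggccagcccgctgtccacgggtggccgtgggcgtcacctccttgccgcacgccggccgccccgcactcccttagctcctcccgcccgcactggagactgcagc
Ikbke: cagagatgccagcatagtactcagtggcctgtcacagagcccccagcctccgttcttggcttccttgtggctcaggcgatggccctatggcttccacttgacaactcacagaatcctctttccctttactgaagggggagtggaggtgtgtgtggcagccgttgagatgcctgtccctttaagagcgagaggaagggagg
Tbk1 has 20 CpG and 65% GC there, and Ikbke has 4 CpG and 56.5% GC. Over all promoters the quartiles are 2 and 11 CpG. The NF-kB motif, searched on both strands, is held by 4.51% of the 32851 RefSeq promoters of 300 bases, and it matched in neither gene. The interferon-stimulated response element, searched as GAAANNGAA on both strands, is held by 8.56% and matched in neither. Among the 8 genes of the set with a promoter entry, the NF-kB motif matched in Map3k7, 92 bases before the start. The interferon element matched in Ripk1, 5 bases before the start of Ripk1-203. A match is a run of letters and no measured site, and no match speaks only of these windows.

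Genes of the surrounding pathway were ranked by nearness in level to Ikbke and to Tbk1, so the nearest resemble them by choice. By root mean square difference of log2 TPM over the 3 libraries, among 45 genes of the surrounding pathway, the nearest to Ikbke were Zbp1 (0.43), Casp8 (0.54) and Sharpin (0.68). Zbp1, a sensor of left-handed nucleic acid that recruits RIPK3, had 70.5, 183 and 61.9 TPM, with replicate 2 highest. Casp8 had 67.9, 75.5 and 80.5 TPM, with replicate 3 highest, and Sharpin had 53.6, 63.9 and 51.7 TPM. Nearest to Tbk1 were Casp8 (0.27), Sharpin (0.28) and Tank (0.31). Tank, a scaffold that binds TBK1, had 45.1, 51.9 and 63.4 TPM.

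Ripk1 (ENSMUSG00000021408.15, chr13:34002363-34037147, plus strand) had 49.1, 52.2 and 78.4 TPM, or 59.9 ± 16.1 TPM (SD, n = 3). Replicate 3 was the high library. Ripk1-201 led with 80.4 ± 5.72% of the gene, and Ripk1-203 followed with 19.1 ± 6.00%. Both have the same 1968 coding bases and differ in their first exon and in the length of the last, which is 1182 bases in Ripk1-201 and 4652 in Ripk1-203. The first exon of Ripk1-201 overlaps Serpinb6a on the opposite strand, which had 655, 886 and 1113 TPM in replicates 1, 2 and 3. Serpinb6a was highest in replicate 3 too, and its part in the Ripk1 value was not tested. The last exon of Ripk1-203 holds the pseudogene Gm17084 on the same strand, at 13.4, 15.02 and 1.34 TPM.

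Transcripts annotated as retained introns took a large share of several genes. For Chuk they made 21.6%, 37.6% and 24.5% of TPM in replicates 1, 2 and 3, for Ikbke 14.3%, 29.5% and 14.6%, and for Tbk1 11.6%, 19.5% and 18.1%. Ripk1, at 0.346% or less, and Ikbkg, at 0.861% or less, had almost none. The kallisto-format table gave higher shares, of 34.0%, 54.2% and 43.1% for Chuk and 22.7%, 43.4% and 26.9% for Ikbke. Over the 6164 detected coding genes with such transcripts the median share was 2.42%, 4.30% and 2.39% in the RSEM-format table. The kallisto-format table gave higher medians too, of 4.42%, 7.60% and 3.88% over 6163 genes. Replicate 2 was thus the high library for genes in general. Of the 8 genes of the set with such transcripts, 5 were highest in replicate 2, where 55.1% of the 5871 genes with a share above 0 were. In the kallisto-format table it was 6 of 8, against 60.2% of 6049 such genes. Those counts are near the background of the libraries and do not set the kinase genes apart.

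**Figure D3:**
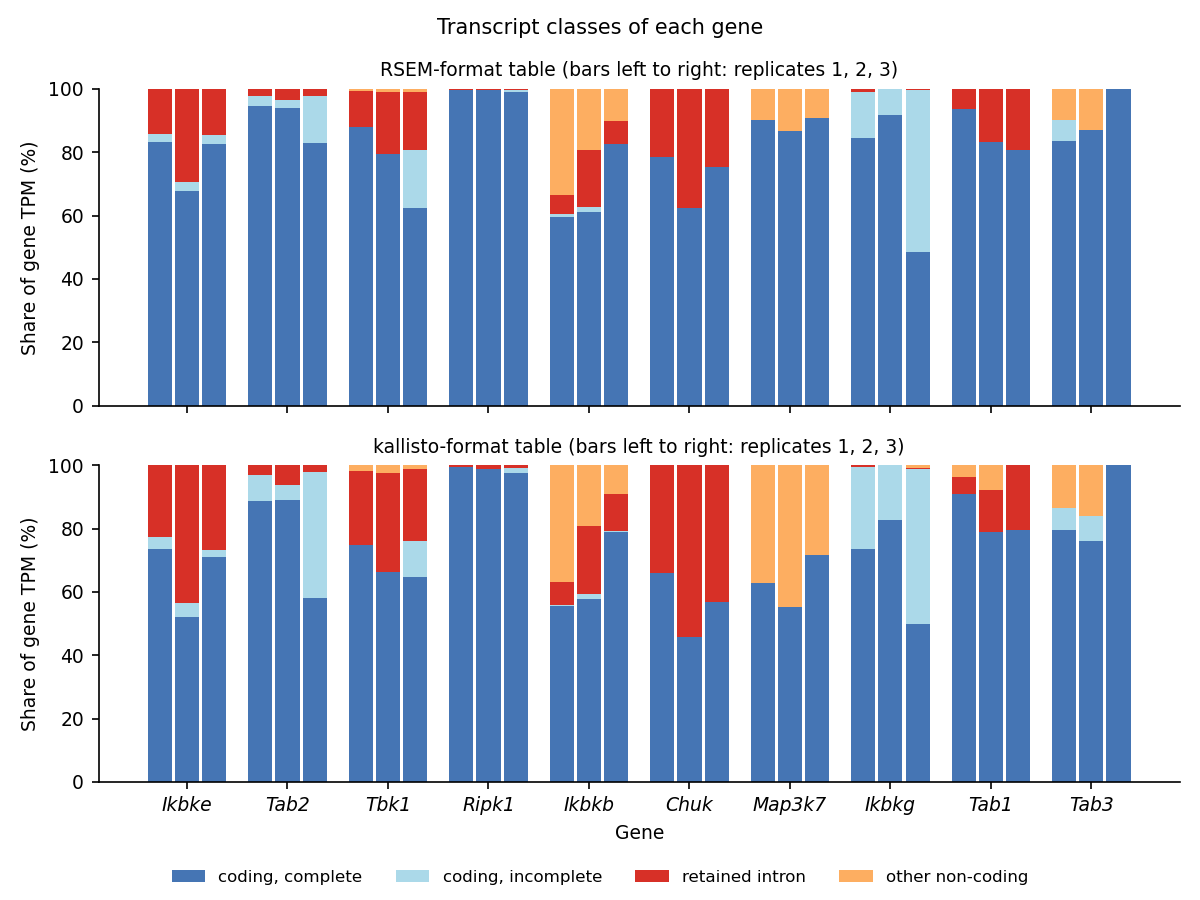
Share of each gene's TPM (%) on 4 classes of annotated transcript, stacked, with 3 bars a gene for replicates 1, 2 and 3; the upper panel is the RSEM-format table and the lower the kallisto-format table. Chuk and Ikbke carry the largest retained-intron shares in replicate 2, at 37.6% and 29.5% in the upper panel, and Ikbkb has a non-coding share that is 33.4% in replicate 1.

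Of the retained-intron transcripts with at least 10% of their gene in some library, Ikbkb-211 spans introns 12 and 13 of Ikbkb whole, and the others hold part of 1 intron. Of these, Chuk-207 and Tab1-203 run from an exon into the intron and end there, and the other 5 begin inside the intron and run on into the next exon. Ikbke-205 holds 323 of 1152 bases of intron 7 of 21, Ikbke-207 holds 294 of 636 bases of intron 10, Tbk1-207 holds 139 of 1962 bases of intron 13 of 20, Chuk-205 holds 297 of 2960 bases of intron 16 of 20, and Chuk-208 holds 374 of 1715 bases of intron 19. The boundary that the first 4 read through is shown with intron bases in capitals and exon bases in lower case, on the minus strand of mm10.
Ikbke-205, chr1:131272207-131272242: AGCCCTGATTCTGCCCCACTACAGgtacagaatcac
Ikbke-207, chr1:131270239-131270274: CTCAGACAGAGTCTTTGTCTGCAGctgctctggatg
Tbk1-207, chr10:121554013-121554048: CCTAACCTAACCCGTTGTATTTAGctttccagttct
Chuk-205, chr19:44078974-44079009: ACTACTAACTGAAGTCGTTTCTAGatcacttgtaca
Each of the 4 stretches ends its intron part in AG, the last bases of the intron. Ikbke-205 had 20.5, 138 and 85.4 expected counts in replicates 1, 2 and 3, and Ikbke-207 had 9.73, 132 and 67.0. Both were highest in replicate 2, at 13 and 13.9 TPM. Tbk1-207 had 39.8, 99.8 and 243 expected counts and 4.42, 10.4 and 12.4 TPM. Chuk-205 had 8.18, 31.6 and 8.40 expected counts. Chuk-207 and Chuk-208 took up to 9.49% and 8.86% of Chuk, and up to 14.7% and 13.4% in the kallisto-format table. Tab1-203 took 6.45%, 16.8% and 19.2% of Tab1, on 3 to 14 expected counts. The last exons of Ikbke-207 lie in the span of the antisense gene Gm28913, which had 3.62, 10.6 and 0.6 TPM and was highest in replicate 2 as well.

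On counts scaled between libraries by TMM, a normalization that fits the bulk of genes, the widest genes were Ikbke and Tab2. Ikbke had 82.8, 189 and 154 CPM, a ratio of 2.28 between highest and lowest. Tab2 had 136, 157 and 306, a ratio of 2.25, and Chuk had 54.7, 60.2 and 30.1, a ratio of 2.00. These 3 of 10 genes were over 2-fold, where 37.0% of the 11886 tested genes were. Ripk1 followed with 118, 121 and 212, or 1.79-fold. Tbk1 and Ikbkb were the steadiest, at 1.31-fold and 1.34-fold. The median ratio was 1.65 over the 10 genes and 1.74 over all genes tested.

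**Figure D4:**
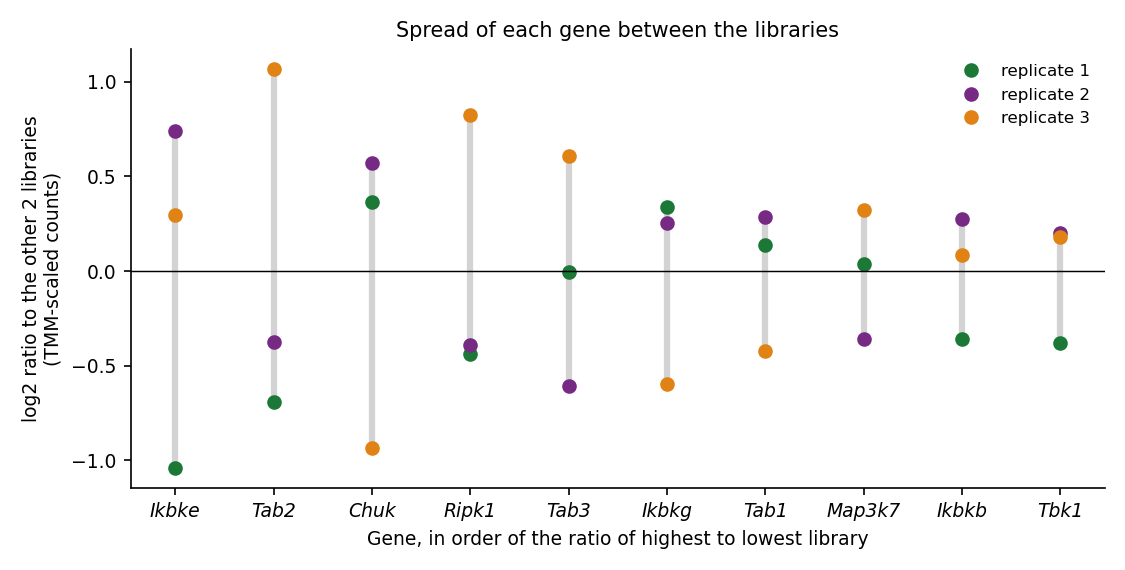
The log2 ratio of each library's TMM-scaled count to the other 2 libraries' geometric mean, per gene, ordered by the ratio of highest to lowest library; points are libraries and grey bars join them. Ikbke at the left has replicate 1 lowest, at -1.04, and Tab2 has replicate 3 highest, at 1.07.

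The edgeR upper-tail F test asked whether a gene varied more between libraries than genes of like abundance. After Benjamini-Hochberg adjustment it called none of the 10 genes, and 0 of all 11886 genes (0%), with 0.97 as the smallest adjusted p. At an unadjusted p under 0.05 there were 545 genes (4.59%) and none of the 10. DESeq2 marked 9 genes as outliers in dispersion. Tab2 had an unadjusted p of 0.180 and Ikbke of 0.196, and both had an adjusted p of 0.97. In simulated counts for this test on 11886 genes, 200 were changed in 1 library, up or down. Of the changed genes that still passed the filter on low counts, 0% were recovered at 8-fold and 89.8% at 32-fold. Differences of the size seen here were therefore not detectable at this depth and number of libraries.

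Of the 10 genes, 1, 5 and 4 were highest in replicates 1, 2 and 3 on the TMM scale, where 34.7%, 32.3% and 33.0% of tested genes were. Lowest in replicates 1, 2 and 3 were 5, 2 and 3 genes, where 34.5%, 32.9% and 32.7% of tested genes were. Ikbke, Chuk, Ikbkb, Tab1 and Tbk1 were the 5 highest in replicate 2. On TPM with no further scaling the numbers highest were 3, 5 and 2, because Map3k7 and Tab3 then peaked in replicate 1 and not in replicate 3. The median detected gene on the log2 TPM scale stood 0.11 and 0.13 above the other libraries in replicates 1 and 2 and -0.25 from them in replicate 3. Tab2 and Ripk1 were highest in replicate 3, and Ikbke highest in replicate 2, on both scales. In TPM, the neutrophil markers S100a8, S100a9, Mpo, Elane and Ngp, 5 of 7, were also highest in replicate 3. Of these, Mpo and Elane were low, at most 1.98 and 0.66 TPM. Camp was highest in replicate 1, at 0.98 TPM, and Ly6g was at 0 in each library. The part of neutrophil transcripts in the Tab2 and Ripk1 values was not tested.

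Upstream and downstream genes of the same pathway were all present. In 7 groups, all 45 genes reached 1 TPM in each library, where 44.8% of protein-coding genes did. Chaperones and scaffolds of IKK had the highest group median, at 169 TPM, led by Hsp90ab1 at 638 ± 185 TPM (SD, n = 3), an HSP90 gene whose product holds IKK and TBK1 in active form. Erc1, a scaffold of IKK, was the lowest there at 5.15 ± 0.959 TPM. Hsp90aa1 was the widest of that group, at 265, 111 and 198 TPM. TBK1 adaptors had a median of 34.4 TPM, with Tank the highest at 53.4 ± 9.25 TPM and Tbkbp1 the lowest at 18.8 ± 1.18 TPM. Optn, a ubiquitin-binding adaptor of selective autophagy, was the widest of them at 14.8, 30.5 and 57.7 TPM.

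Ubiquitin enzymes had a median of 17.5 TPM. Ube2v1, which with Ube2n builds the chains that TAB2 reads, was the highest at 137 ± 9.62 TPM, and Traf2, an adaptor of TNF receptors, the lowest at 8.54 ± 3.73 TPM (SD, n = 3 each). Birc3, a ubiquitin ligase of RIPK1, was the widest at 16.3, 55.7 and 26.2 TPM. Among RIPK1 partners, with a median of 21.8 TPM, Zbp1 was highest at 105 ± 67.7 TPM and Ripk2, the kinase below NOD receptors, lowest at 7.45 ± 2.10 TPM. Kinases next to TAK1 and IKK had a median of 21.2 TPM, from Map3k3 at 38.7 ± 4.65 TPM to the p38 kinase activator Map2k6 at 1.95 ± 0.372 TPM. Map3k8, the kinase TPL2 that IKK releases, was the widest at 7.83, 31.4 and 18.2 TPM.

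Deubiquitinases and ubiquitin binders had a median of 21.1 TPM. Tnip1, a partner of A20, was highest at 57.4 ± 20.4 TPM and Spata2, a partner of CYLD, lowest at 11.4 ± 3.59 TPM (SD, n = 3 each). Tnfaip3, which encodes A20, was the widest at 31.6, 18.1 and 13.6 TPM. Of the substrates, with a median of 31.9 TPM, Irf7 was highest at 173 ± 107 TPM and Nfkb2 lowest at 27.5 ± 13.3 TPM. Irf7, itself interferon-stimulated, was also the widest at 148, 290 and 81.2 TPM, with replicate 2 again high. The kinase complex median of 36.1 TPM lay near those of the TBK1 adaptors and the substrates, and below that of the chaperones.

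**Figure D5:**
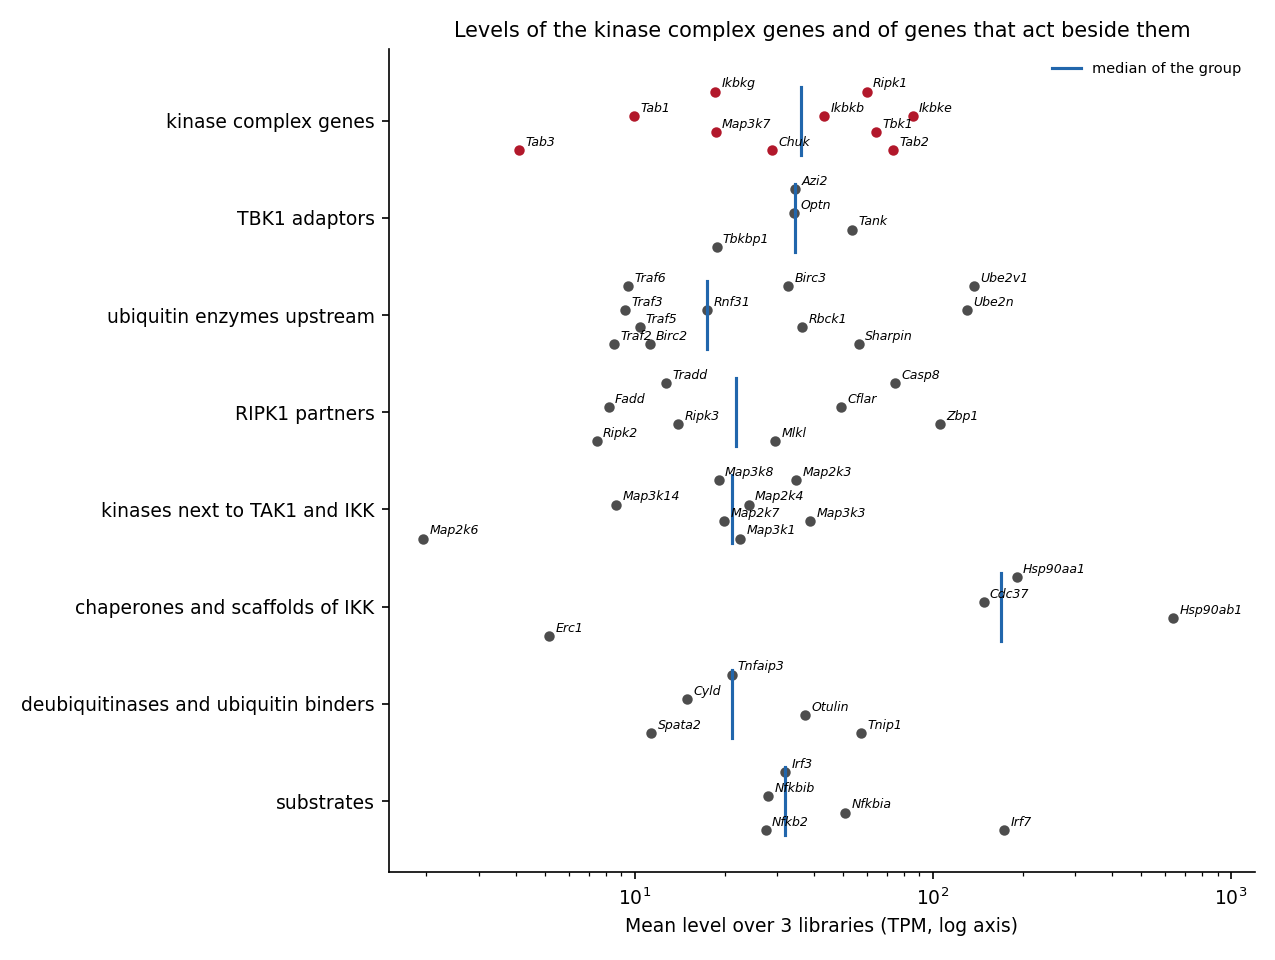
Mean level over 3 libraries (TPM, log axis) of the 10 kinase complex genes, in red, and of 45 genes in 7 groups around them, with the median of each group as a blue line. The medians run from 17.5 TPM for ubiquitin enzymes to 169 TPM for chaperones, and Tab3 and Tab1 lie at the low end of the kinase complex genes.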

How the data were processed

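Polyadenylated RNA-seq tables of 3 libraries in 1 group were used. Their headers show RSEM format for the gene table and for 1 transcript table, and kallisto format for the other transcript table. The deposited lists of source files give build mm10 and annotation GENCODE M21. Neither aligner nor version nor strand setting is given in the sources used here. The expected counts and posterior mean counts were deposited by the authors in the gene tables and need not be whole. TPM and FPKM were deposited by the authors, scaled for length and library. The estimated counts of the kallisto-format table were deposited per transcript. The percent of a gene on each transcript and the upper bounds of TPM, treated as a score, were deposited by the authors but not used for results.

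The 10 genes, the lists and the naming rule were chosen with earlier results of these data known. The rule names all 10 genes, overlapping genes, the highest, lowest and widest gene of each pathway group, the 3 genes nearest to Ikbke and to Tbk1, and transcripts with at least 10% of their gene in any library. Entries that name no gene were left out: 26248 numbered entries and 97 spike-ins, with 0.0843% to 0.131% of counts. Shares are transcript TPM over the gene's summed TPM. Log2 ratios of TPM used a pseudocount of 0.1, and the median shift of TPM used 1. Expected counts were rounded, filtered by filterByExpr, scaled by TMM and fitted in edgeR 4.0.16 (R 4.3.3, limma 3.58.1) with an intercept only. DESeq2 1.42.0 was an alternative. The test was tried on simulated counts. Promoter sequences are RefSeq's (GRCm38.p6), found for 8 of the 10 genes; transcript sequences are GENCODE M21's. Depth limits cover counting error only, because no molecular identifiers are named, and p-values measure the spread between these libraries.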

Additional observations from a re-analysis of the deposited data

How the results depend on the processing

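Of 326 recomputed values of 57 results, 294 were labelled as unchanged and 32 as moved. Levels, ratios and shares counted as moved beyond the SD between libraries, and counts beyond 1.5 times. A gene's spread in the edgeR test counted as changed only at an adjusted p under 0.05, whatever its size. Only the log2 ratios could change sign, and 0 did. With a replicate left out, a gene's mean level, log2 ratio or share could not move beyond that SD. A mean of 2 libraries always lies within it, so those values are no check of robustness. In the kallisto-format table the log2 ratio of Ikbkg over Ikbkb was -0.96, the median share of the leading transcript 65.8% against 74.2%, and the share of coding Map3k7 TPM with the alternative exon 41.9% against 33.1%. FPKM gave a median level of 24.4, on another scale. The number of genes called more variable was 146 without a filter on low counts and 9 with DESeq2, against 0, and 0 to 7 when each replicate was left out. No adjusted p of the 10 genes was under 0.911 in any setting. On TPM with no further scaling 3 genes were highest in replicate 1 and 2 in replicate 3, against 1 and 4. The number of steps in the order of levels that held was between 3 and 6 when each replicate was left out. The causes of these differences were not tested. No paired analysis was possible because there is 1 group and so nothing to pair. Low counts, such as those of Tab1, Tab3 and the short transcripts, and the number of 3 libraries limit the precision.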
